A study of Mus musculus with 4 samples.

Results

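A set of 10 genes that damp signalling through the kinase ERK was followed in mouse skeletal muscle with 1 or both Nf1 alleles floxed. It holds the Sprouty genes Spry1, Spry2 and Spry4, the Sprouty-related genes Spred1, Spred2 and Spred3, and the dual-specificity phosphatase genes Dusp1, Dusp4, Dusp6 and Dusp7. The genes were taken by name from the per-library files, with the copy of highest mean where a name had several rows. All 10 were found, each on 1 row, among 32868 gene names. The rule names the genes and uses no measured value, but it was written with earlier results of these data known.

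The data are RNA sequencing of the tibialis anterior, a fast-contracting hindlimb muscle, from C57BL/6 mice at postnatal day 21. The Het group (2 libraries) had the genotype Nf1flox/+/Myf5+, so 1 Nf1 allele was floxed, and the Nf1-KO group (2 libraries) had Nf1flox/flox/Myf5+, so both were. Both groups carry Myf5+, which in such crosses stands for a Cre recombinase expressed from the Myf5 gene in muscle precursors, although the labels do not name a recombinase. There is no group without a floxed allele. Cells that do not express such a recombinase would keep their Nf1, and where Nf1 was deleted was not measured here. The labels do not say that the libraries come from separate animals, so p-values measure the spread between these samples, which may be technical. The series title puts the question as one of Nf1 in muscle growth and metabolism after birth. The values are RPKM, that is, reads per kilobase of gene and scaled to the reads of the library, and depth was estimated at 36500000 and 58100000 reads for Het 1 and 2 and at 47000000 and 51000000 reads for Nf1-KO 1 and 2.

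Growth factor receptors switch on Ras, and Ras passes the signal through Raf and MEK to ERK. Neurofibromin, the product of Nf1, returns Ras to its inactive form. Signalling through ERK switches on genes whose products then hold it back. Sprouty proteins act near the receptors and Ras, and SPRED1 binds neurofibromin and brings it to the membrane, where it meets Ras. DUSP6 and DUSP7 remove the activating phosphates from ERK in the cytoplasm, whereas DUSP1 and DUSP4 are inducible phosphatases of the nucleus that also act on the related kinases JNK and p38. In skeletal muscle, Spry1 is known for its part in the return of satellite cells, the muscle stem cells, to rest.

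Nf1 itself was measured at 1.09 and 1.01 RPKM in Het 1 and 2 and at 0.89 and 0.85 RPKM in Nf1-KO 1 and 2. Both libraries labelled Nf1-KO were therefore below both Het libraries. The log2 fold change was -0.18 (SE 0.057, limma adjusted p = 0.041) and the call was lost without any 1 library (Het 1, Het 2, Nf1-KO 1 or Nf1-KO 2, adjusted p 0.062 to 0.16), without scaling (adjusted p = 0.0944) and with no filter on low values (adjusted p = 0.0805). In the authors' deposited table its log2 fold change was -0.38 (adjusted p = 0.0026). These values cover the whole gene, and the labels do not say which exons were floxed. The muscle label was checked with 7 muscle genes, whose summed values were 48547 and 48715 RPKM in Het and 42094 and 41702 RPKM in Nf1-KO, among them Acta1, skeletal alpha-actin, and Ckm, muscle creatine kinase.

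The sequence upstream of the start is shown for the gene with the largest rise (Dusp7), the Sprouty gene with the largest rise (Spry2), the gene that fell (Spred3) and the most abundant one (Dusp1). Each run is the 250 bases before the RefSeq start on GRCm38.p6, written 5′ to 3′ on the strand of the gene. They are chr9:106368382-106368631 on the plus strand for Dusp7 and, on the minus strand, chr14:105896820-105897069 for Spry2, chr7:29168648-29168897 for Spred3 and chr17:26508473-26508722 for Dusp1. Capitals mark matches to the cyclic AMP response element (CRE, TGACGTCA) and to the Sp1 box (GGGCGG), searched on both strands.
Dusp7: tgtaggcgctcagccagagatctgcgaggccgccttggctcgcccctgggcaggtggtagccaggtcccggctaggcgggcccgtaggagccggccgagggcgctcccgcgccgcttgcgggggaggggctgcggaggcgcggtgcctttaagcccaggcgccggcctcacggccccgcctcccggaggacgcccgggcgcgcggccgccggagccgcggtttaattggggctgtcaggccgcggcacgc
Spry2: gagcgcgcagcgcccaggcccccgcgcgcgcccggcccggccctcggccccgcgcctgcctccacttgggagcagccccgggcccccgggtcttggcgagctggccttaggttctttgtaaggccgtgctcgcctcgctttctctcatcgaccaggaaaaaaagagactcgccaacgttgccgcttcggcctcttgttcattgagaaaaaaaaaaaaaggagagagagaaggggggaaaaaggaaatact
Spred3: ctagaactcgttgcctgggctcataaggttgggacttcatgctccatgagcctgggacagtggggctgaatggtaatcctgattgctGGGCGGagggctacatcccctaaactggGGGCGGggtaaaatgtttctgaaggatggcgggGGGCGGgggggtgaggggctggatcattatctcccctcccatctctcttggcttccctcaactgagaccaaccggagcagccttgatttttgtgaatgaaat
Dusp1: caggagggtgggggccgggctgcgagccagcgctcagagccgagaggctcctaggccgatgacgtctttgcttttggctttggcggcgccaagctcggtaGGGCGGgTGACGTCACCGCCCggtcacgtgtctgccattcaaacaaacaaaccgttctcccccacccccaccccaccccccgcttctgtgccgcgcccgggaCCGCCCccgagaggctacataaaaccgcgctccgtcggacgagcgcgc
The Dusp1 run holds 1 CRE and 3 Sp1 boxes, of which 2 flank the CRE. The Spred3 run holds 3 Sp1 boxes, and the runs of Dusp7 and Spry2 hold no match. A CRE stood in the same window of 1.77% of 27025 mouse genes in the RefSeq table and an Sp1 box in 35.4%. Of the 10 genes, 8 were searched, and Spry4 and Dusp4 were not. None of these 8 held an AP-1 site (TGANTCA, 7.82% of genes), an Ets site (CCGGAAG, 7.83%) or a CArG box (1.62%). G and C made up 77.2% of the Dusp7 run, 62.4% of the Spry2 run, 55.6% of the Spred3 run and 68.4% of the Dusp1 run, against a median of 52.4% over all genes. These are matches of letters only. The Spred3 and Dusp1 runs lie inside the GENCODE M21 spans of these genes, whose outermost starts are further upstream.

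Of the 10 feedback genes, 4 rose in Nf1-KO (Spry1, Spry2, Dusp6 and Dusp7), 1 fell (Spred3) and 5 did not pass the threshold (Spry4, Spred1, Spred2, Dusp1 and Dusp4). The test was limma on log2(RPKM + 1) after scaling the libraries, with p-values adjusted over 10690 genes and a threshold of 0.05, and fold changes on this scale understate the change of low genes. So many genes of the muscle differed that 50.3% of those tested were called (24.9% higher and 25.4% lower), and a share of 5 in 10 is that of the background. The median log2 fold change was 0.13 over the 10 genes and 0.000503 over all genes tested. Spred3 passed the filter on low values only through its Het libraries, so it had to differ. On the values as deposited the 2 groups did not overlap for any of the 10 genes, 9 of which were higher in Nf1-KO. Of the tested genes, 77.3% did not overlap either, and 49.8% did so with Nf1-KO higher. After scaling, 7 of the 10 did not overlap, against 76.3% of the tested genes. Scaling lowered the Nf1-KO values relative to Het, and the median log2 fold change of all tested genes without it was 0.0697. Unscaled, 3760 genes were higher (35.2%) and 1883 lower (17.6%), and among the feedback genes Spry4 joined those that rose. The authors' deposited table called 3 of the 10 higher (Spry1, Spry2 and Dusp7) and 1 lower (Spred3), beside 31.6% of its 13985 rows (15.0% higher and 16.6% lower).

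**Figure D1:**
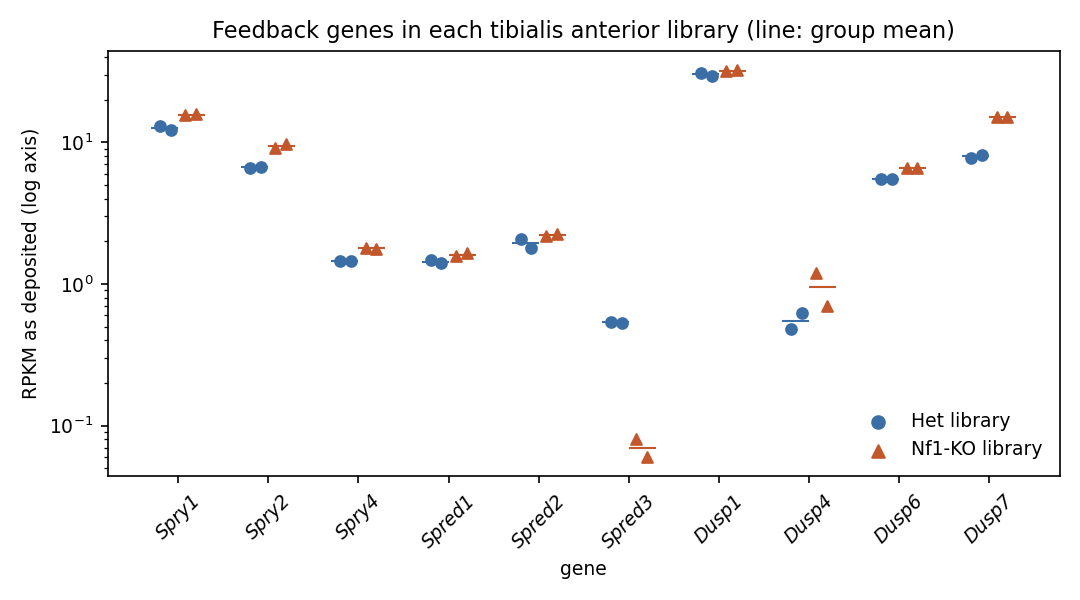
RPKM as deposited of each feedback gene (log axis) in the 2 Het and 2 Nf1-KO libraries, 1 point per library, with a line at each group's mean. Dusp1 lies highest in both groups, Dusp7 moves from 7.95 to 15.1 RPKM, and Spred3 drops from 0.535 to 0.07 RPKM.

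Dusp7 had the largest rise of the set. It encodes a cytoplasmic phosphatase that is selective for ERK. It stood at 7.79 and 8.11 RPKM in Het 1 and 2 and at 15.14 and 15.12 RPKM in Nf1-KO 1 and 2. The groups lay far apart for their spread, at 7.95 ± 0.226 and 15.1 ± 0.0141 RPKM (SD, n = 2 each). The Nf1-KO mean was 1.9 times the Het mean, and the log2 fold change was 0.76 (SE 0.037, 95% interval 0.67 to 0.85, limma adjusted p = 1.8e-05). By this measure it ranked 213th from the top of the 10690 genes, and 267 genes (2.5%) were called with a log2 fold change above 0.7. The authors' deposited table gave 0.82 (SE 0.07, adjusted p = 9.4e-30). The gene lies at chr9:106368632-106375724 on the plus strand of GRCm38, and its RefSeq promoter run is the first of those printed above.

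Dusp6, the closest relative of Dusp7 in the set and a widely used readout of ERK signalling, rose much less. Its values were 5.51 RPKM in both Het libraries and 6.61 and 6.56 RPKM in Nf1-KO 1 and 2. The groups did not overlap, and the mean went from 5.51 to 6.58 RPKM, a ratio of 1.2. The log2 fold change was 0.14 (SE 0.04, 95% interval 0.04 to 0.24, limma adjusted p = 0.028). The call was lost without any 1 library (Het 1, Het 2, Nf1-KO 1 or Nf1-KO 2, log2 fold change 0.13 to 0.15, adjusted p 0.0854 to 0.119) and was absent from the authors' deposited table (log2 fold change 0.15, adjusted p = 0.285). Dusp7 made up 58.6% and 59.5% of the summed RPKM of this pair in Het and 69.6% and 69.7% in Nf1-KO. The summed level of the pair was 13.5 ± 0.226 RPKM in Het and 21.7 ± 0.0495 RPKM in Nf1-KO (SD, n = 2 each), and most of that difference was Dusp7.

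Spry2 and Spry1, which encode inducible inhibitors between receptors and ERK, both rose. Spry2 was at 6.59 and 6.74 RPKM in Het 1 and 2 and at 9.08 and 9.79 RPKM in Nf1-KO 1 and 2. Its Nf1-KO mean of 9.43 ± 0.502 RPKM was 1.42 times the Het mean of 6.67 ± 0.106 RPKM (SD, n = 2 each). The log2 fold change was 0.36 (SE 0.046, 95% interval 0.25 to 0.47, limma adjusted p = 0.0012), and the authors' deposited table gave 0.39 (adjusted p = 0.00076). Spry1, the most abundant Sprouty gene, was at 13.12 and 12.29 RPKM in Het and 15.53 and 15.82 RPKM in Nf1-KO. The lower Nf1-KO library was still above the higher Het library. Its log2 fold change was 0.2 (SE 0.04, 95% interval 0.1 to 0.29, limma adjusted p = 0.0079), and 0.2 in the authors' deposited table (adjusted p = 0.021). Exons of Spry1 overlap 710 bases of Gm42922 on the other strand in GENCODE M21, and whether the reads were counted by strand is not stated, so reads of the 2 genes may be mixed.

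Spry4 was low, at 1.45 RPKM in both Het libraries and 1.8 and 1.77 RPKM in Nf1-KO 1 and 2. The groups did not overlap, and the ratio of the means was 1.23, as for Spry1. The log2 fold change of 0.13 (SE 0.052, 95% interval -0.000588 to 0.25) missed the threshold at a limma adjusted p of 0.089. The gene was called without scaling (adjusted p = 0.026) and without the variance trend (adjusted p = 0.0361). The authors' deposited table gave 0.19 (adjusted p = 0.375). Spry3, the remaining Sprouty gene, was listed at 0 in all 4 libraries. Summed over Spry1, Spry2 and Spry4, the Sprouty level was 21.2 and 20.5 RPKM in Het and 26.4 and 27.4 RPKM in Nf1-KO.

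Spred3 was the only gene of the 10 that fell. SPRED3 is a member of the Spred family that is less studied than SPRED1. Its values were 0.54 and 0.53 RPKM in Het 1 and 2 and 0.08 and 0.06 RPKM in Nf1-KO 1 and 2. The Het mean was thus 7.64 times the Nf1-KO mean, at about 79.9 and 125 estimated reads in Het against 15.3 and 12.4 in Nf1-KO. On the log2(RPKM + 1) scale the change was -0.54 (SE 0.056, 95% interval -0.68 to -0.4, limma adjusted p = 0.00046), and with a pseudocount of 0.1 it was -1.96 (adjusted p = 0.00061). The authors' deposited table gave -3.08 (SE 0.44, adjusted p = 1.9e-11) at a mean of 59.7 normalized counts. By the main measure 500 genes (4.68%) were called with a log2 fold change below -0.5, and Spred3 ranked 422nd from the lowest. Its GENCODE M21 exons, taken over all its transcripts, overlap 202 exon bases of Ggn, a gene on the other strand. Ggn was at 0.12 and 0.18 RPKM in Het and 0.09 and 0.02 RPKM in Nf1-KO. Ggn was too low to be tested. The Spred3 gene lies at chr7:29158829-29170411 on the minus strand of GRCm38.

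Spred1 and Spred2 made up most of the Spred level and did not pass the threshold. Spred1, whose product recruits neurofibromin, was at 1.48 and 1.41 RPKM in Het and 1.57 and 1.66 RPKM in Nf1-KO. Its log2 fold change was 0.0398 (95% interval -0.09 to 0.17, limma adjusted p = 0.581), and the scaled groups overlapped. Spred2 was at 2.07 and 1.8 RPKM in Het and 2.19 and 2.25 RPKM in Nf1-KO. Its log2 fold change was 0.07 (95% interval -0.08 to 0.23, limma adjusted p = 0.388), again with overlap after scaling. The intervals leave room for a rise of up to 0.17 and 0.23, or a fall of up to 0.09 and 0.08, on the log2 scale. The 3 Spred genes together had 3.92 ± 0.247 RPKM in Het and 3.91 ± 0.0919 RPKM in Nf1-KO (SD, n = 2 each), although the share of Spred3 went from 13.2% and 14.2% to 2.08% and 1.51%.

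**Figure D2:**
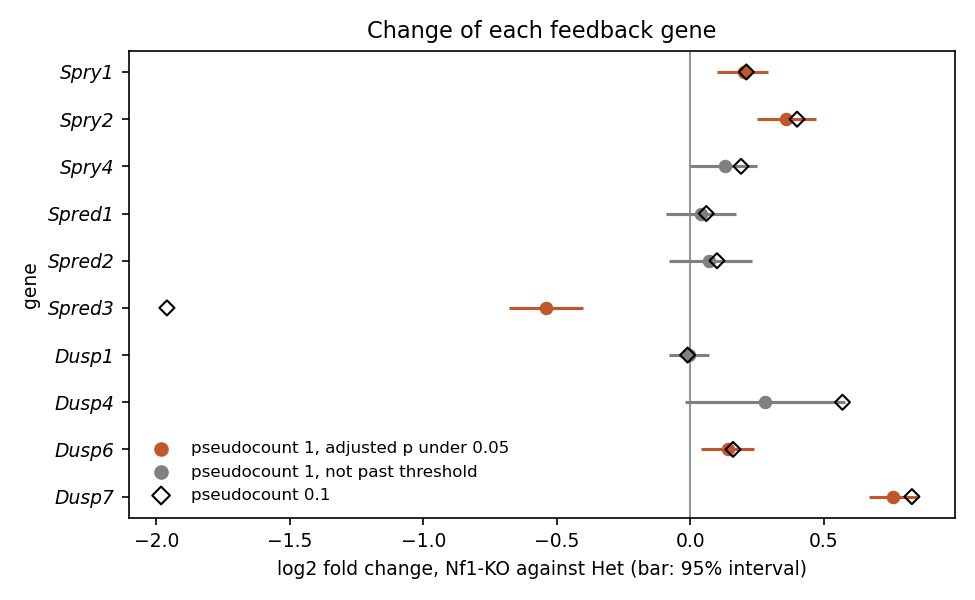
Log2 fold change of Nf1-KO against Het for each feedback gene (point) with its 95% interval (bar). The intervals of Dusp7, Spry2, Spry1 and Dusp6 lie above 0, that of Spred3 lies below 0, and the other 5 reach or cross 0.

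The inducible nuclear phosphatases did not pass the threshold. Dusp1, an immediate early gene and the most abundant of the set, was at 30.77 and 29.63 RPKM in Het and 31.8 and 32.39 RPKM in Nf1-KO. Both Nf1-KO libraries were above both Het libraries as deposited, and the groups overlapped once scaled. The log2 fold change was -0.00625 (SE 0.03, 95% interval -0.08 to 0.07, limma adjusted p = 0.879), and its sign turned without scaling (0.09, adjusted p = 0.0544), with scaling by the median ratio (0.00596), and without Het 1 (0.02) or Nf1-KO 1 (0.00559). Dusp4 was at 0.48 and 0.62 RPKM in Het and 1.19 and 0.7 RPKM in Nf1-KO. The groups did not overlap, and Nf1-KO 1 stood apart from the other 3 libraries. The log2 fold change was 0.28 (SE 0.12, 95% interval -0.02 to 0.58, limma adjusted p = 0.106), and it was called without Nf1-KO 2 (0.46, adjusted p = 0.00921). The authors' deposited table gave 0.65 for Dusp4 (adjusted p = 0.146) and -0.02 for Dusp1 (adjusted p = 0.87).

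The order of the levels per length was the same in both groups. From high to low it ran Dusp1, Spry1, Dusp7, Spry2, Dusp6, Spred2, Spry4, Spred1, Dusp4 and Spred3. In Het, the libraries of Spry4 and Spred1 overlapped, as did those of Dusp4 and Spred3, while no neighbours overlapped in Nf1-KO. The distances changed more than the order, since Dusp7 came up to 15.1 RPKM beside Spry1 at 15.7 RPKM in Nf1-KO. Dusp1 made up 44.1% and 43.5% of the summed RPKM of the 10 genes in Het and 37.4% and 37.6% in Nf1-KO, and Dusp7 went from 11.2% and 11.9% to 17.8% and 17.6%. The sum itself was 69.8 and 68.1 RPKM in Het and 85.0 and 86.1 RPKM in Nf1-KO.

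**Figure D3:**
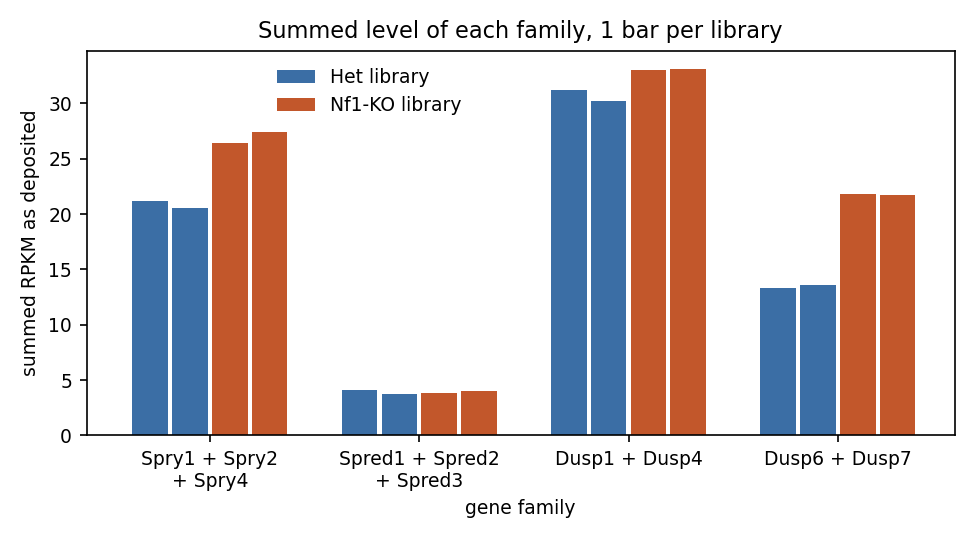
Summed RPKM as deposited of the Sprouty, Spred, Dusp1 with Dusp4, and Dusp6 with Dusp7 genes, 1 bar per library. The sum of Dusp6 and Dusp7 goes from 13.5 to 21.7 RPKM and the Sprouty sum from 20.8 to 26.9 RPKM, while the Spred sum is 3.92 and 3.91 RPKM.

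Dual-specificity phosphatases outside the set moved in both directions. Of 6 further MAP kinase phosphatases, 3 were tested and 2 of these fell, both of which act mainly on JNK and p38. Dusp10 was at 17.68 and 18.58 RPKM in Het and 12.43 and 12.98 RPKM in Nf1-KO (log2 fold change -0.57, limma adjusted p = 8.5e-05). Dusp8 was at 9.17 and 9.92 RPKM in Het and 7.05 and 6.68 RPKM in Nf1-KO (-0.51, adjusted p = 0.00041). In Het, Dusp10 was 2.27 and 2.29 times as high per length as Dusp7, and in Nf1-KO it was 0.821 and 0.858 times as high. Dusp16, at 0.53 and 0.54 RPKM in Het and 0.7 and 0.61 RPKM in Nf1-KO, did not pass (adjusted p = 0.345), Dusp2 and Dusp5 were under the filter, and Dusp9 was listed at 0.

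Among 14 small and atypical members of the phosphatase family, 11 were tested, of which 3 rose, 5 fell and 3 did not pass. Dusp3, whose product can act on ERK and JNK, fell from 38.16 and 37.56 RPKM to 23.03 and 22.04 RPKM (log2 fold change -0.81, limma adjusted p = 7.6e-06). Dusp13, which includes a form found in skeletal muscle, fell from 38.31 and 35.87 RPKM to 25.98 and 27.77 RPKM (-0.54, adjusted p = 0.00016). Dusp14 rose from 1.43 and 1.58 RPKM to 3.46 and 3.0 RPKM (0.69, adjusted p = 0.00047), and Dusp26 from 34.32 and 33.38 RPKM to 43.27 and 42.67 RPKM (0.24, adjusted p = 0.00058). Their median log2 fold change was -0.1. Dusp3, Dusp8 and Dusp13 each overlap exons of a gene on the other strand. Of the genes named below, Ppp2ca, Ccnd1, Fgfr3 and Phlda1 do so too, on up to 2985, 1100, 998 and 727 bases. Further ones overlap as well, and reads may be mixed in all of them.

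**Figure D4:**
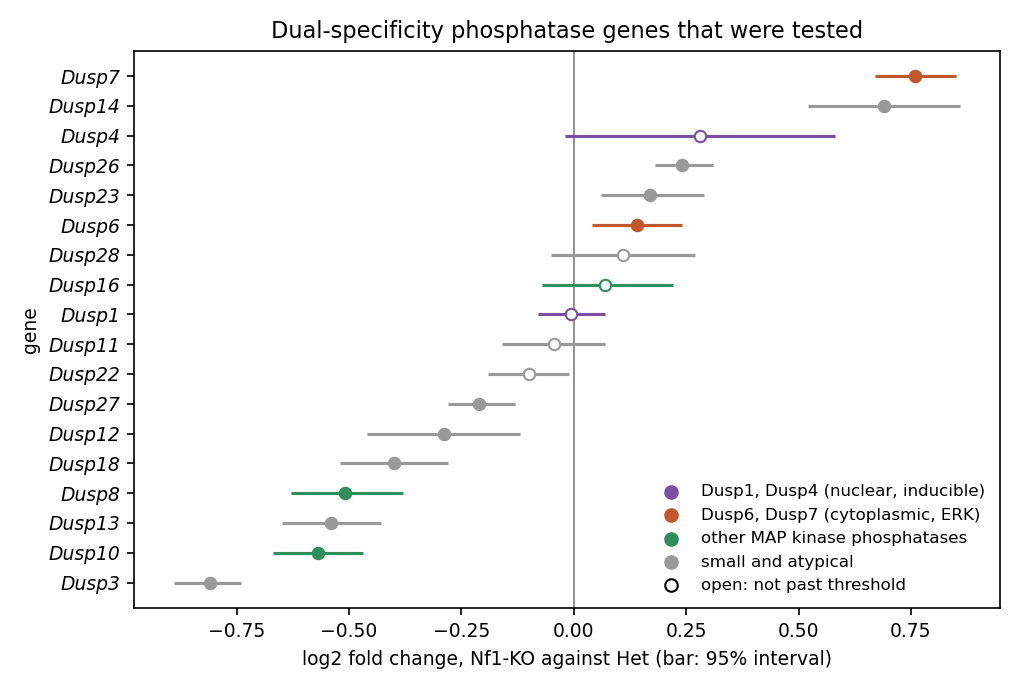
Log2 fold change of Nf1-KO against Het (point) with its 95% interval (bar) for every tested dual-specificity phosphatase gene. Dusp7 at 0.76 and Dusp14 at 0.69 lie highest, and Dusp3 at -0.81 and Dusp10 at -0.57 lie lowest.

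Other regulators of receptor and ERK signalling, not all of them brakes, were on a list of 6 genes. Of these, 5 were tested, 3 rose and none fell. Trib1, a pseudokinase that binds MEK1, rose from 3.98 and 4.2 RPKM to 7.61 and 7.44 RPKM (log2 fold change 0.66, limma adjusted p = 7.9e-05). Cblb, a ubiquitin ligase for receptors, rose from 1.52 and 1.57 RPKM to 2.24 and 2.23 RPKM (0.28, adjusted p = 0.0051). Errfi1, an inhibitor of the EGF receptor family, rose from 7.17 and 7.69 RPKM to 10.11 and 9.25 RPKM (0.26, adjusted p = 0.01), a call lost without Het 1 (adjusted p = 0.0629) and with no filter (adjusted p = 0.0598). Il17rd (0.0266, adjusted p = 0.742) and Lrig1 (-0.00182, adjusted p = 0.968) did not pass.

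Proteins known to bind or modify Sprouty and Spred formed a list of 13 genes, Nf1 included, all tested, of which 3 rose and 7 fell. Ppp2ca, the catalytic subunit of the phosphatase PP2A, which dephosphorylates SPRY2, rose from 56.48 and 56.39 RPKM to 87.37 and 86.37 RPKM (log2 fold change 0.52, limma adjusted p = 9.9e-06). Dyrk1a, a kinase that phosphorylates SPRY2, fell from 14.12 and 14.42 RPKM to 11.88 and 11.64 RPKM (-0.35, adjusted p = 0.00035). Ptpn11, which encodes the phosphatase SHP2, fell from 21.49 and 21.43 RPKM to 18.67 and 18.64 RPKM (-0.28, adjusted p = 0.00038), and Cav1, caveolin-1, from 52.15 and 52.18 RPKM to 44.98 and 42.08 RPKM (-0.35, adjusted p = 0.00042). Without scaling, 3 were higher and 4 lower, since Nf1, Grb2 and Mknk1 no longer passed.

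Upstream of Ras, 4 of 12 tested receptor genes rose and 1 fell (7 and 1 without scaling). Fgfr1 was at 8.4 and 8.48 RPKM in Het and 11.57 and 11.22 RPKM in Nf1-KO (log2 fold change 0.31, limma adjusted p = 0.00082). Fgfr3 was at 0.29 and 0.34 RPKM in Het and 0.94 RPKM in both Nf1-KO libraries, through which alone it passed the filter (0.53, adjusted p = 0.00055). Pdgfra, also a fibroblast marker, was at 0.89 and 0.85 RPKM in Het and 1.42 and 1.52 RPKM in Nf1-KO (0.35, adjusted p = 0.003), and Kdr, an endothelial receptor, fell (-0.25, adjusted p = 0.004). Of 9 tested adaptor and exchange factor genes 0 rose and 2 fell (1 and 2 without scaling), both of them exchange factors that load Ras with GTP: Sos2 (-0.32, adjusted p = 0.00058) and Sos1 (-0.25, adjusted p = 0.0058).

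Within the cascade, 1 of 13 tested Ras, Raf, MEK and ERK genes rose and 7 fell (2 and 6 without scaling). Hras fell from 20.15 and 20.58 RPKM to 16.26 and 16.58 RPKM (log2 fold change -0.38, limma adjusted p = 0.00016), and Map2k2, which encodes MEK2, from 48.69 and 48.03 RPKM to 42.39 and 41.04 RPKM (-0.3, adjusted p = 0.00025). Ksr1, a scaffold of the cascade, fell by 0.33 (adjusted p = 0.0003) and Mras, a Ras relative, by 0.58 (adjusted p = 0.00047) on the log2 scale. Mapk3, which encodes an ERK, was at 9.38 and 10.27 RPKM in Het and 11.12 and 10.74 RPKM in Nf1-KO and did not pass (0.06, adjusted p = 0.398). Of the 9 tested JNK and p38 kinase genes, 1 rose and 6 fell, with Map2k6, a kinase that activates p38, going from 17.39 and 17.47 RPKM to 10.7 and 10.39 RPKM (-0.76, adjusted p = 1.2e-05). Map2k3, another activator of p38, was the one that rose, by 0.33 on the log2 scale (adjusted p = 9.7e-05).

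Among 10 ERK substrate genes, 2 rose and 4 fell (3 and 3 without scaling), and the most firmly called were Srf (log2 fold change -0.34, limma adjusted p = 0.00022) and Rps6ka3 (-0.35, adjusted p = 0.00083). Of 10 tested genes known as ERK targets, 4 rose and 2 fell. Phlda1 went from 1.47 and 1.52 RPKM to 3.94 and 3.78 RPKM (0.9, adjusted p = 4.1e-05) and Ier3 from 3.69 and 3.14 RPKM to 7.82 and 8.95 RPKM (1.01, adjusted p = 0.00016). Ccnd1, cyclin D1, fell from 1.87 and 1.89 RPKM to 1.26 and 1.33 RPKM (-0.39, adjusted p = 0.0016), and Epha2 fell from 1.15 to 0.9 RPKM in both libraries (-0.23, adjusted p = 0.014), a call lost without Nf1-KO 1 or Nf1-KO 2 (adjusted p 0.0629 and 0.0634).

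Immediate early genes, which cells switch on within minutes of a stimulus, were a list of 13, of which 10 were tested, 8 rose and 2 fell, with a median log2 fold change of 0.61. Egr1 rose from 1.63 and 1.64 RPKM to 4.92 and 4.95 RPKM (1.1, limma adjusted p = 1.2e-05). Klf4 rose by 0.73 (adjusted p = 3.3e-05) and Zfp36 by 0.61 (adjusted p = 2.2e-05) on the log2 scale. Jun fell from 27.11 and 28.31 RPKM to 20.02 and 19.6 RPKM (-0.55, adjusted p = 4.7e-05), and Fos fell too (-0.42, adjusted p = 0.0022). Dusp1 belongs with these genes by its kinetics, and its own log2 fold change was -0.00625. Over the 104 tested genes of all these lists, each counted once and without the 10 feedback genes and Nf1, 29 rose, 37 fell and 38 did not pass, with a median of -0.05 (36 and 33, median 0.03, without scaling). Of those called, Fgfr3 and Etv1 passed the filter only through Nf1-KO and Mapk11 only through Het. Beside the counts of all these lists, 24.9% of all genes tested were called higher and 25.4% lower (35.2% and 17.6% without scaling).

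**Figure D5:**
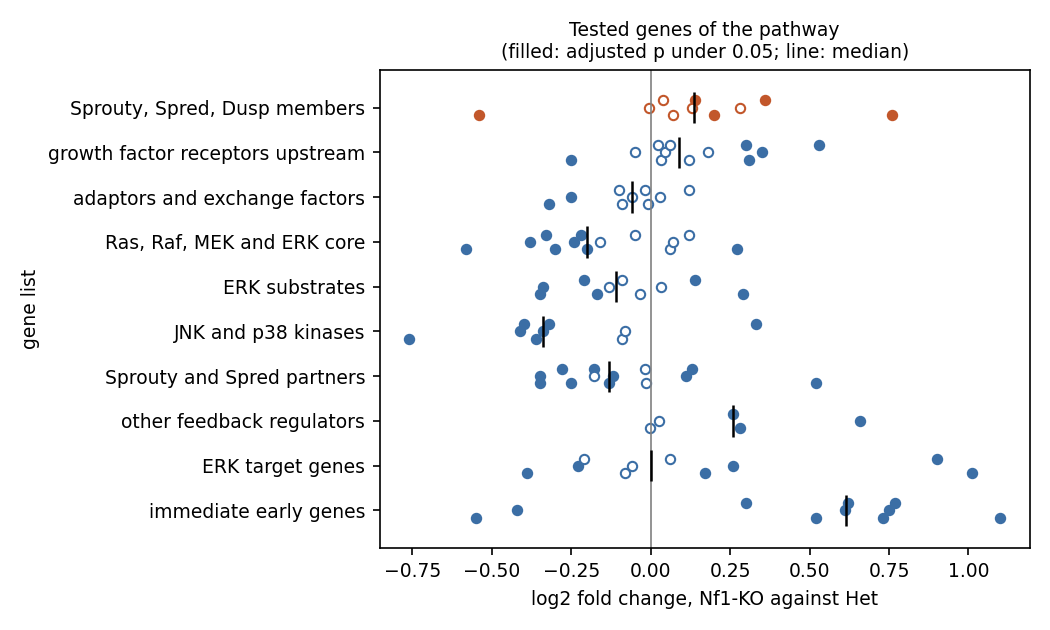
Log2 fold change of Nf1-KO against Het for each tested gene of the feedback set and of the pathway lists (points), with a line at each list's median. Points are filled where adjusted p is under 0.05. The lists of dual-specificity phosphatases outside the set are not drawn here. The median is 0.13 for the feedback genes, 0.61 for the immediate early genes, -0.2 for the Ras, Raf, MEK and ERK core and -0.34 for the JNK and p38 kinases.

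Markers of other cell types moved with the same comparison, in which 24.9% of all genes tested were called higher and 25.4% lower. In whole muscle, a change in the number of cells of a type and a change in its RNA per cell cannot be told apart. Of 8 tested Schwann cell genes 7 rose and none fell, and their summed level was 18.0 and 18.6 RPKM in Het and 38.8 and 37.3 RPKM in Nf1-KO. Of 8 fibroblast genes 7 rose and none fell (161 and 158 RPKM against 219 and 217 RPKM). Of 5 tested immune cell genes 4 rose and none fell (12.3 and 12.1 RPKM against 32.5 and 32.8 RPKM), with Adgre1 listed at 0. Most of the rise of the immune sum was Lyz2, at 7.47 and 7.38 RPKM in Het and 24.35 and 24.62 RPKM in Nf1-KO. Of 6 tested satellite cell genes 3 rose and none fell (15.7 and 15.0 RPKM against 18.7 and 17.9 RPKM), of 8 endothelial genes 4 rose and 1 fell (108 and 109 RPKM against 128 and 126 RPKM), and of 6 smooth muscle and pericyte genes 2 rose and 2 fell (114 and 115 RPKM against 133 and 132 RPKM). Of 3 tested adipocyte genes 2 rose and none was called lower (178 and 185 RPKM against 268 and 266 RPKM, mostly Fabp4). The other, Adipoq, was at 1.11 and 1.31 RPKM in Het and 0.95 and 1.05 RPKM in Nf1-KO (limma adjusted p = 0.058). Among adipocyte genes under the filter, Lep was lower in Nf1-KO (0.21 and 0.22 against 0.03 and 0.05 RPKM). Retn was higher (0.17 and 0.29 against 0.4 and 0.41 RPKM), and Plin1 overlapped as deposited. Alas2, the only tested red blood cell gene, did not pass (adjusted p = 0.134), with 5 globin names listed at 0. Among the markers, S100b, Sox10, Fbln1 and Chrdl2 passed the filter only through Nf1-KO. Without scaling, 5 satellite cell genes were higher and 0 lower, 5 endothelial genes higher and 0 lower, 3 smooth muscle and pericyte genes higher and 1 lower, and Alas2 higher. Of the 7 muscle genes 2 rose and 5 fell, among which Myh4, a fast myosin heavy chain, had a log2 fold change of -1.08 and Mb, myoglobin, of 0.72. The part of these cell types in the rises of Dusp7, Spry1, Spry2 and Dusp6 and in the fall of Spred3 was not tested.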

How the data were processed

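RNA of 4 tibialis anterior libraries was column-purified and made into TruSeq RNA v2 libraries, per the labels' protocols. The authors deposited 1 value per gene and library, read from the values as RPKM since the headers name no unit. The authors' comparison table gives, per the file headers, a mean signal (counts divided by size factors), a log2 fold change with its error, a test score and a p-value. STAR 2.4.2a, DESeq2 and mm9 are named in the submitters' processing notes, without a role. How reads were counted is not given in the sources used here. Positions come from GENCODE M21 (GRCm38) and promoters from RefSeq (GRCm38.p6), not the files' build, so no value was placed by coordinate.

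Here, 33 rows with a number for a name and 1781 further copies of a name were left out. Genes that reached 0.5 RPKM in 2 or more libraries went into limma 3.58.1 (R 4.3.3, two-sided, variance trend) on log2(RPKM + 1), scaled by a trimmed mean of log ratios (each end trimmed by 30% for ratios and 5% for abundances, factors 0.969, 0.967, 1.03 and 1.03), with Benjamini-Hochberg adjustment at 0.05. With 2 libraries against 2, an exact permutation test cannot go below 0.333. Depth was estimated from the steps of low values in transcripts under 400 bases. Intervals are limma's 95% intervals. The fit was run on simulated data in which far fewer genes changed than were called here, so that run does not bear on these calls.

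The genes and lists were chosen with earlier results of these data known. From each pathway list the genes of smallest adjusted p were named (at most 4, or 2 where under 3 were called), and others only to account for a list's remaining genes. Some genes are not reported here.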

Additional observations from a re-analysis of the deposited data

How the results depend on the processing

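Results were recomputed under 16 other settings (pseudocount, filter, scaling, variance trend, threshold, a replicate block, the authors' deposited table, and leaving out each library). The change of threshold was applied only to counts of called genes. Among single genes other than Nf1, 686 of 703 recomputed values kept their direction and their side of the threshold. For the feedback genes it was 136 of 148, the exceptions being Dusp6 (5 settings without a call), Spry4 (2 with one), Dusp4 (1 with one) and Dusp1 (4 of opposite sign). Dusp1 went from -0.00625 to 0.09 without scaling, to 0.00596 with median scaling, and to between -0.03 and 0.02 without 1 library (0.00559 without Nf1-KO 1). Il17rd turned to -0.02 without Nf1-KO 1, and lay between -0.02 and 0.07 over the 4 omissions. Nf1 lost its call without scaling (-0.13), with no filter (-0.18) and without 1 library (-0.21 to -0.15). With at least 1 RPKM asked of every library, the number of feedback genes that fell was 0, since Spred3 is not tested there, as are Nf1 and Dusp4. The cause of the other changes was not tested.

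Same-numbered libraries did not deviate together (correlation of deviations across genes -0.0179), so the numbers pair nothing. A replicate block gave 5217 calls against 5372, called 5 feedback genes, and took the call of Nf1 (-0.18, adjusted p = 0.0561). A lone library left by an omission is assumed to vary like the other group. Depth limits Spred3 and Dusp4 most, at 12.4 to 153 estimated reads per library.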

Other observations

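Some related genes lay under the filter and were not tested here; they were picked out after their values were seen. Fgfr2, a receptor for fibroblast growth factors, was at 0.02 RPKM in both Het libraries and 0.18 and 0.16 RPKM in Nf1-KO, with 2.9 as log2 fold change in the authors' deposited table (adjusted p = 5.4e-05). Egr2 was at 0.11 and 0.24 RPKM in Het and 0.57 and 0.48 RPKM in Nf1-KO (1.41, adjusted p = 0.0074 in the authors' deposited table), and Egr3 was at 0.08 and 0.07 RPKM against 0.23 and 0.25 RPKM (1.57, adjusted p = 0.012 there). Fosb, a relative of Fos, was at 0.24 and 0.18 RPKM in Het and 0.05 RPKM in both Nf1-KO libraries (-2.2, adjusted p = 0.0025 in the authors' deposited table). Dusp15, a phosphatase gene known from myelinating glia, was at 0.05 and 0.09 RPKM in Het and 0.24 and 0.25 RPKM in Nf1-KO (1.71, adjusted p = 0.019 in the authors' deposited table). Dusp2 was at 0.24 and 0.28 RPKM against 0.49 and 0.43 RPKM, with no overlap, and Dusp5 at 0.17 and 0.09 RPKM against 0.17 and 0.37 RPKM.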
